A study of Mus musculus with 4 samples.

Results

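Inhibins, activins, AMH and BMP4 are secreted ligands of the transforming growth factor beta superfamily, and 9 genes that encode such ligands, their receptors and an inhibitor were followed here through the cell types around the rete testis (RT) of the mouse. They are *Inha*, *Inhba*, *Inhbb*, *Amh*, *Amhr2*, *Acvr2a*, *Acvr1*, *Fst* and *Bmp4*, taken by symbol, and each matched 1 of the 31053 gene rows of the count tables. The part of the testis with the RT and nearby tubules was taken from C57BL/6 mice at postnatal day 14. Single-cell libraries were made with a 10x Genomics 3' kit, which tags each captured RNA molecule with a unique molecular identifier (UMI). There were 2 control and 2 *Sox17*-cKO libraries, each from the pooled cells of 3 pups, so pups within a library cannot be told apart. In the *Sox17*-cKO mice the sample records give SF1Cre with Sox17flox/flox, a Cre recombinase driven by *Nr5a1* (SF1) sequences, which are used by Sertoli and Leydig cells as well as by the RT. For the controls the records give SF1Cre, whereas the methods of the study give littermates with Sox17flox/flox, and whether the controls carried Cre is thus unresolved.

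Dimers of an inhibin alpha chain (*Inha*) with a beta chain (*Inhba* or *Inhbb*) form inhibin, and dimers of beta chains alone form activin. Activin signals through type II receptors such as that of *Acvr2a*, AMH binds its own type II receptor (*Amhr2*), and AMH and BMPs share the type I receptor of *Acvr1*; follistatin (*Fst*) binds activins and blocks them. In the testis, Sertoli cells are the known source of inhibin B and of AMH, and AMH falls as Sertoli cells mature before puberty.

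Cell classes were named from marker genes that included none of the 9 genes and none of the other pathway genes, and these genes were also kept out of the clustering. Of 9388 to 13364 barcodes per library, the 5174 to 6135 with 1000 to 4500 detected genes were retained. The tubule Sertoli-like class held 5010 cells and the RT-like class 228, and 364 Sertoli-like cells with markers of the Sertoli valve (SV, the Sertoli cells at the tubule end next to the RT) formed the SV Sertoli-like class. All 9 RT markers were detected in RT-like cells, where their summed level was 4936 to 5813 CPM (UMI counts per 1000000) over the libraries, against 3.35 to 7.78 CPM in tubule Sertoli-like cells. The 12 SV markers, by which the SV class was chosen, summed to 1836 to 2620 CPM in SV Sertoli-like and to 200.1 to 278 CPM in tubule Sertoli-like cells. Their sum was 767 to 1006 CPM in RT-like and 999 to 1359 CPM in endothelial-like cells. The 10 Sertoli markers summed to 18412 to 22717 CPM in tubule Sertoli-like and 11696 to 17130 CPM in SV Sertoli-like cells. They were all detected in RT-like cells too, at 7.60% to 10.95% of their summed level in tubule Sertoli-like cells of the same library. The SV Sertoli-like class was the union of 2 sub-clusters, of which the larger (254 cells) was led by *Cyr61*, *Cebpd*, *Adamts1* and *Atf3*, which include stress-responsive genes, and the smaller (110 cells) by *Wfdc18*, *Fabp3* and *Tagln2*. *Sox17*, the targeted gene, was at 356 and 312 CPM in RT-like cells of the controls and at 45.5 and 34.6 CPM in those of the *Sox17*-cKO libraries (2 libraries per genotype), so the labels held for the targeted gene. Levels in CPM are the UMIs of a gene scaled to the UMIs of its class in 1 library, and values for 4 libraries are given in the order control 1, control 2, *Sox17*-cKO 1 and *Sox17*-cKO 2. Orders of levels are over the 9 named classes with at least 20 cells in every library. Leydig-like cells, endothelial-like cells and the unnamed clusters are outside these orders. An unnamed cluster, rich in mitochondrial UMIs, carried Sertoli genes, with *Amh* at 14.8 to 26.8 CPM and *Amhr2* at 335 to 382 CPM.

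Promoter sequences are shown for 3 genes whose levels separated the classes in different ways, namely *Inhbb* (highest in tubule Sertoli-like cells), *Amhr2* (high in both Sertoli-like classes and in RT-like cells) and *Bmp4* (present in RT-like cells and nearly absent from Sertoli-like cells). Each is the 250 bases before the RefSeq transcription start on GRCm38.p6, 5′ to 3′ on the strand of the gene. Capitals mark matches on either strand to the half-site bound by NR5A1 (AGGTCA) or to a GATA-type site, searched as (AGATAA) and (TGATAA) and also as (AGATAG) and (TGATAG).
Inhbb, chr1:119422249-119422498, minus strand: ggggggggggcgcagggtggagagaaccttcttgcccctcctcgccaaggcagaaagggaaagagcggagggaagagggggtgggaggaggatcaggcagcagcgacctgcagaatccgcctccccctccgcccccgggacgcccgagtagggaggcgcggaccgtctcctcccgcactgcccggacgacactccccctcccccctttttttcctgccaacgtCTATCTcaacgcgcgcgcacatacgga
Amhr2, chr15:102445117-102445366, plus strand: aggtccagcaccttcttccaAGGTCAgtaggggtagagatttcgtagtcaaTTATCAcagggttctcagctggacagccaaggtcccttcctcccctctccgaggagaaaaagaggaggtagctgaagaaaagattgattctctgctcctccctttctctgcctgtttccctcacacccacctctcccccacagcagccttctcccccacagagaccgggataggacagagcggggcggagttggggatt
Bmp4, chr14:46390670-46390919, minus strand: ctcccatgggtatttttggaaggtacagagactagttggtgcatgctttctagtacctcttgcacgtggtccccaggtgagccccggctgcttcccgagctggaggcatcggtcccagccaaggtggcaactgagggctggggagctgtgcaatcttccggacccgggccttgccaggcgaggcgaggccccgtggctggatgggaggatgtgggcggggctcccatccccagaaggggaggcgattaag
The *Amhr2* window held 1 AGGTCA, at 230 to 225 bases before the start, and 1 GATA-type match on the opposite strand, at 199 to 194 bases. In the *Inhbb* window there was 1 GATA-type match, on the opposite strand at 27 to 22 bases, and in that of *Bmp4* there was no match to either. Of 32851 promoter windows of this length, 14.02% held AGGTCA and 26.5% held a GATA-type match, so these matches describe the sequences only. The matches did not overlap each other, and the letters AACAAT (SOX-type) and TGACGTCA (the cyclic AMP response element) were in none of the 3 windows, against 9.42% and 1.55% of all.

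**Figure D1:**
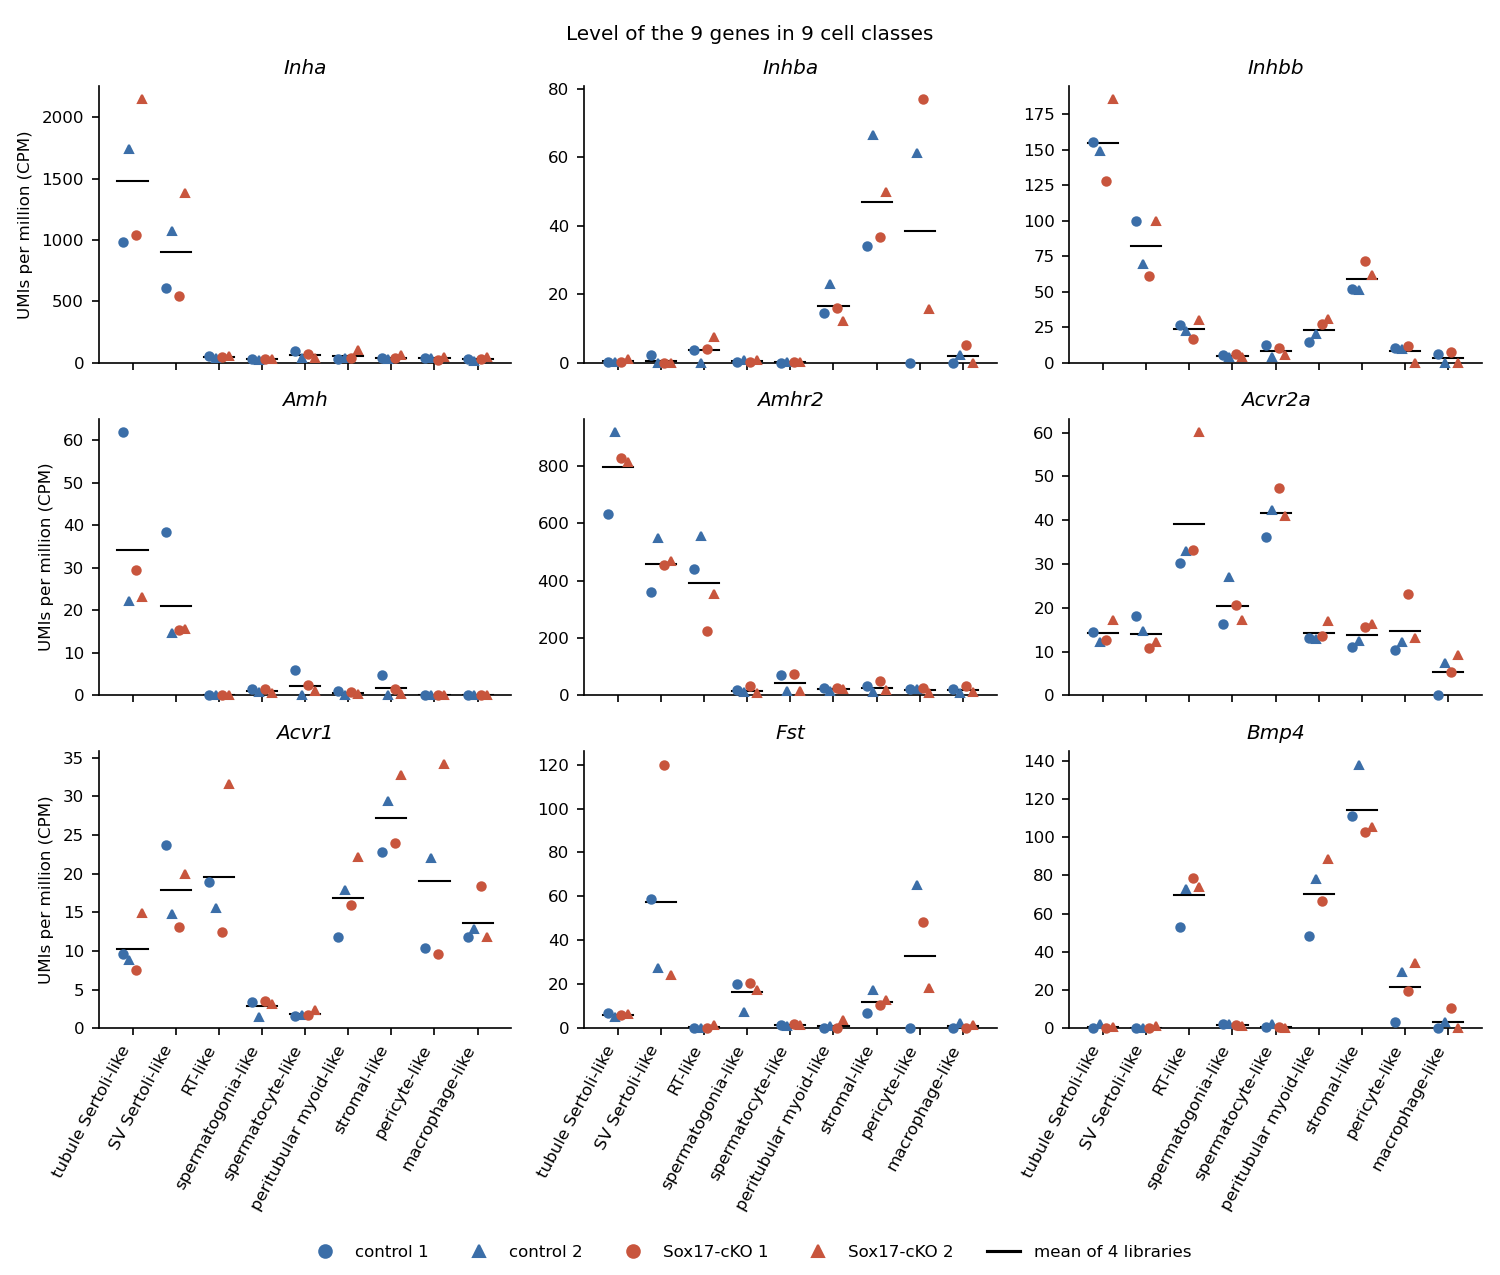
Level of the 9 genes in 9 cell classes. Each point is 1 library, as CPM (linear axis from 0, scaled per gene), with blue for control, red for *Sox17*-cKO, circles for replicate 1 and triangles for replicate 2, and the bar is the mean of 4 libraries. *Inha*, *Amh* and *Amhr2* stood out in Sertoli-like cells, *Amhr2* also in RT-like cells, *Fst* in SV Sertoli-like cells, and *Bmp4* and *Inhba* outside the Sertoli-like classes.

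*Inha* (ENSMUSG00000032968, chromosome 1 of GRCm38 from 75507077 to 75510366, 2 exons), which encodes the inhibin alpha chain, had higher levels in the Sertoli-like classes than in the other 7 of the 9 classes. Its level was 986, 1743, 1038 and 2149 CPM in tubule Sertoli-like cells and 606, 1077, 548 and 1386 CPM in SV Sertoli-like cells. Both replicates numbered 2 were above both replicates numbered 1 in each of these classes, whatever the genotype. In RT-like cells it was 56.7, 36.4, 45.5 and 58.7 CPM (mean 49.3 ± 10.4, SD, n = 4 libraries), far below either. The means of the remaining classes ran from 60.8 CPM in spermatocyte-like to 27.8 CPM in spermatogonia-like cells, and each neighbour in this order overlapped the next. Outside the Sertoli-like classes *Inha* was at 2.11% to 5.09% of the tubule Sertoli-like level on average, and in each of these 7 classes this average was below that for the 10 Sertoli markers (2.30% to 9.87%). Some single libraries went the other way. Examples were 1.20% against 0.82% in spermatogonia-like cells of control 2, and 4.69% against 3.88% in peritubular myoid-like cells of *Sox17*-cKO 2. Leydig-like cells were too few for a library mean (13 cells in control 1), but they had 1841 *Inha* UMIs. Their level was 652, 448, 810 and 813 CPM, above that of SV Sertoli-like cells in 2 of 4 libraries, or 25.7% to 78.0% of the tubule Sertoli-like level beside 3.30% to 7.07% for the Sertoli markers.

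*Inhbb* (ENSMUSG00000037035, chromosome 1, 119415465 to 119422248, minus strand, 2 exons), the beta B chain, was at 155, 149, 128 and 186 CPM in tubule Sertoli-like cells. The SV class had 99.6, 69.7, 61.1 and 99.7 CPM, and no library of this class reached the lowest of the tubule class. Stromal-like cells came next with 51.8, 51.1, 71.8 and 61.9 CPM, which overlapped the SV Sertoli-like values. Within them, the cluster led by collagen genes and *Lum* had 70.4 ± 13.1 CPM and the cluster led by *Dlk1* had 26.6 ± 4.97 CPM (SD, n = 4 libraries each), without overlap. The stromal-like level was 39.3% of that of tubule Sertoli-like cells on average, where the Sertoli markers were at 4.52%. RT-like cells had 26.5, 22.5, 16.5 and 30.1 CPM, a range shared with peritubular myoid-like cells. These were 13.0% to 17.0% of the tubule Sertoli-like level and above the percentage of the Sertoli markers in each library.

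*Inhba* (ENSMUSG00000041324, chromosome 13, 16011851 to 16031621, up to 5 exons), the beta A chain, was distributed in another way. Its total was 15 among the 30351715 UMIs of tubule Sertoli-like cells, 2 UMIs for the SV class and 7 for RT-like cells, so that it was too low to be tested in any of them. Stromal-like cells had the highest mean, with 34.3, 66.7, 36.8 and 50 CPM. Here the *Dlk1*-led cluster was the higher, at 65.3 ± 16.6 CPM, against 40.4 ± 12.4 CPM in the *Lum* cluster (SD, n = 4 libraries each), and higher in 4 of 4 libraries. Thus the beta chain genes had opposite orders in the 2 stromal-like clusters. Pericyte-like cells had 0, 61.3, 77.0 and 15.8 CPM, a spread as wide as their mean, and peritubular myoid-like cells 14.7, 23.1, 15.9 and 12.2 CPM. Leydig-like cells had 90 UMIs.

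*Amh* (ENSMUSG00000035262, chromosome 10, 80805243 to 80807648, 5 exons) was highest in Sertoli-like cells. Its level was 61.9, 22.3, 29.5 and 23.1 CPM in tubule Sertoli-like and 38.5, 14.8, 15.3 and 15.5 CPM in SV Sertoli-like cells, with control 1 the highest of both. RT-like cells had 0 of 1748644 UMIs, which allows a level of up to 1.72 CPM at 3 counts over the class. Pericyte-like and macrophage-like cells had 0 UMIs as well. The largest mean among the other 7 classes was 2.32 ± 2.60 CPM (SD, n = 4 libraries) in spermatocyte-like cells, at 5.45% of the tubule level beside 7.14% for the Sertoli markers.

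Its receptor gene *Amhr2* (ENSMUSG00000023047, chromosome 15, 102445367 to 102454633, up to 11 exons) was shared by Sertoli-like and RT-like cells. Tubule Sertoli-like cells had 632, 918, 826 and 812 CPM and SV Sertoli-like cells 359, 549, 454 and 468 CPM, without overlap. RT-like cells had 439, 554, 223 and 355 CPM, which overlapped the SV Sertoli-like values. This was 69.4%, 60.3%, 27.1% and 43.7% of the tubule Sertoli-like level of the same library, whereas the Sertoli markers were at 10.6%, 7.60%, 10.3% and 10.95%, so the *Amhr2* level of RT-like cells was above theirs in every library. The next class, spermatocyte-like cells, had a mean of 44.5 CPM, below the lowest RT-like library. Leydig-like cells had 257 UMIs and 72.0 to 161 CPM.

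The presence of *Amhr2* in RT-like cells was also seen cell by cell. With each cell thinned to 2000 UMIs, and 8 shallower cells left out, 45.7%, 63.4%, 43.3% and 53.6% of RT-like cells had an *Amhr2* UMI. Also left out were 490 of 5010 tubule Sertoli-like, 21 of 364 SV Sertoli-like and 91 of 3224 spermatocyte-like cells. The share with an *Amhr2* UMI was 66.1% to 72.7% in tubule and 46.4% to 56.1% in SV Sertoli-like cells, and 2.57% to 12.4% in spermatocyte-like cells. The last are germ cells taken here as the background of free RNA, a choice that was not tested. In them the Sertoli markers were at 14.8%, 2.03%, 9.70% and 2.02% of the tubule Sertoli-like level. In RT-like cells the markers were at 10.6%, 7.60%, 10.3% and 10.95%. Without thinning, at median depths of 6543 to 7868 UMIs in RT-like cells and 6071 to 8132 UMIs in spermatocyte-like cells, the shares were 69.7% to 87.7% and 8.79% to 33.5%. For *Inha* the thinned share was 8.57%, 4.23%, 13.3% and 10.7% in RT-like cells and 14.7%, 6.42%, 13.2% and 7.91% in spermatocyte-like cells, so that the order of these classes differed between libraries. It averaged 80.9% in tubule and 68.7% in SV Sertoli-like cells.

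**Figure D2:**
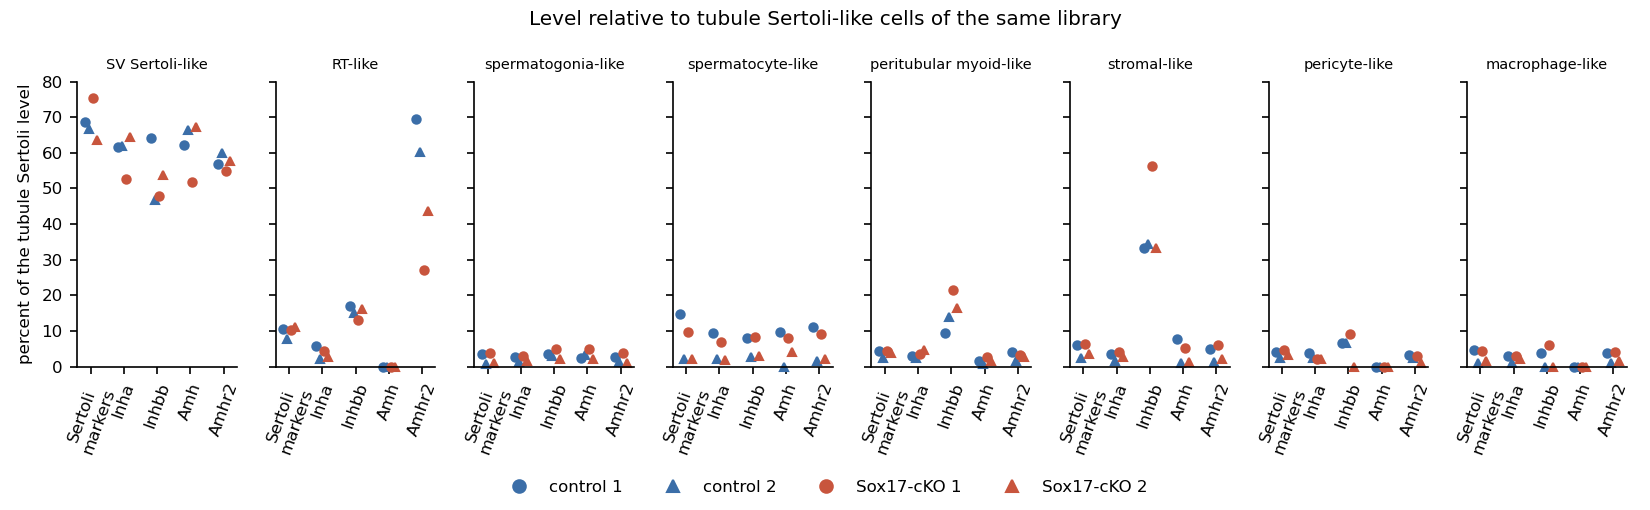
Level of the Sertoli-enriched genes in each class as a percentage of the tubule Sertoli-like level of the same library, beside the summed level of the 10 Sertoli markers, with 1 point per library (blue control, red *Sox17*-cKO, circles replicate 1, triangles replicate 2). In RT-like cells *Amhr2* lay between 27.1% and 69.4% while the markers lay between 7.60% and 10.95%, and in stromal-like cells *Inhbb* lay between 33.3% and 56.2% while the markers averaged 4.52%.

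The activin and BMP receptor genes were low and spread widely. *Acvr2a* (ENSMUSG00000052155, chromosome 2, 48814109 to 48903269, up to 11 exons), a type II receptor, was at 30.3, 32.9, 33.1 and 60.2 CPM in RT-like cells. Spermatocyte-like cells had 36.2, 42.3, 47.3 and 41.0 CPM, and these 2 classes overlapped but stood above the other 7 of the 9 classes without overlap. Endothelial-like cells, with 15 UMIs, had 20.7 to 38.8 CPM and reached into the RT-like range, as did the unnamed mitochondria-rich cluster with 12.8 to 38.3 CPM. In tubule and SV Sertoli-like cells the means were 14.2 ± 2.25 and 13.99 ± 3.18 CPM (SD, n = 4 libraries). *Acvr1* (ENSMUSG00000026836, chromosome 2, 58388644 to 58567157, minus strand, up to 13 exons), the type I receptor, was highest among the classes with enough cells in stromal-like cells, with 27.3 ± 4.71 CPM. RT-like cells had 18.9, 15.6, 12.4 and 31.6 CPM, SV Sertoli-like cells 23.8, 14.8, 13.1 and 19.9 CPM and tubule Sertoli-like cells 9.56, 8.87, 7.55 and 14.9 CPM, and each of these overlapped the next. The germ cell classes had the lowest means, 2.89 and 1.83 CPM. Leydig-like and endothelial-like cells, of which there were too few for a mean, had 232 and 42 *Acvr1* UMIs, or 53.4 to 113 and 30.8 to 135 CPM.

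*Fst* (ENSMUSG00000021765, chromosome 13, 114452290 to 114458951, minus strand, up to 6 exons), the activin inhibitor, was highest in SV Sertoli-like cells, at 58.8, 27.4, 120.0 and 24.4 CPM. All 4 libraries were above the 6.70, 5.07, 5.81 and 6.67 CPM of tubule Sertoli-like cells, but they differed widely among themselves, with *Sox17*-cKO 1 the highest. RT-like cells had 1 UMI. Pericyte-like cells had 0, 65.0, 48.1 and 18.4 CPM, which overlapped the SV Sertoli-like values, and spermatogonia-like cells 20.1, 7.20, 20.7 and 17.3 CPM. Both SV Sertoli-like sub-clusters carried *Fst*, with 29.9, 17.2, 62.4 and 25.7 CPM in the one led by *Wfdc18* (2 to 5 UMIs per library) and 61.2, 30.8, 132 and 24.1 CPM in the one led by *Atf3* (11 to 50 UMIs).

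*Bmp4* (ENSMUSG00000021835, chromosome 14, 46383520 to 46390669, minus strand, up to 4 exons), a BMP ligand, was present in RT-like cells and nearly absent from the Sertoli-like classes. RT-like cells had 53.0, 72.7, 78.6 and 73.7 CPM, whereas all tubule Sertoli-like cells together had 20 UMIs and the SV class had 1. Among the 9 classes stromal-like cells were highest at 111, 138, 103 and 106 CPM, above the peritubular myoid-like cells (70.5 ± 17.2 CPM) and the RT-like cells (69.5 ± 11.3 CPM, SD, n = 4 libraries each), which overlapped. After thinning, 5.63% to 16.7% of RT-like cells had a *Bmp4* UMI, against at most 0.285% of spermatocyte-like cells. Endothelial-like cells, 71 in all, had 91 UMIs and 46.2, 128, 187 and 264 CPM, above stromal-like cells in both *Sox17*-cKO libraries. Genes on the opposite strand overlap *Inhba*, *Acvr2a*, *Acvr1*, *Fst* and *Bmp4*, and the methods of the study give Cell Ranger with default settings, which counts 3' reads by strand.

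The genes whose levels over the 9 classes were most like each member, by Pearson's r of mean log2(CPM + 1) among 14130 genes and with no test, were *Shbg*, *Slc47a2* and *Gpr55* for *Inha* (r from 0.992 to 0.995). For *Amh* they were *4930595M18Rik*, *Cacng5* and *Cst6* (0.980 to 0.992), for *Amhr2* *Tnni3*, *Cfap161* and *Prr15* (0.990 to 0.998), and for *Inhbb* *St8sia2*, *Lrrn4* and *Usp46* (0.955 to 0.980). *Inhba* was most like *Lox*, *Sparcl1* and *Serping1* (0.988 to 0.990) and *Bmp4* most like *Ccdc8*, *Adamts15* and *Gstt1* (all 0.982). For *Acvr2a* they were *Pfkfb2*, *Kmt5b* and *Rpgr* (0.977 to 0.978) and for *Acvr1* *Wls*, *Kif13a* and *Upp2* (0.970 to 0.972). *Fst* had the lowest values, with *Serpine2* at 0.932, *Fam124a* at 0.899 and *Aplp1* at 0.886. The classes share libraries and free RNA, and 9 points fix such values loosely.

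The SV Sertoli-like cells were then compared with the tubule Sertoli-like cells within each library, to ask how the Sertoli cells next to the RT differ in this pathway. Sums of UMIs per class and library were tested with edgeR's quasi-likelihood test, the library as a block and Benjamini-Hochberg adjustment over 8700 genes. Of these, 2372 (27.3%) were past the threshold of 0.05, with 1127 (13.0%) higher and 1245 (14.3%) lower in SV Sertoli-like cells, so a call by itself was common. The classes are clusters of the same cells, and the p-values measure only how far differences between classes varied from library to library. *Fst* rose by 2.997 on the log2 scale (standard error 0.305, adjusted p = 3.7e-08) and was higher in 4 of 4 libraries. Of the genes highest in Sertoli-like cells, *Inhbb* fell by 0.95 (standard error 0.115, adjusted p = 6.3e-07), *Amhr2* fell by 0.87 (standard error 0.138, adjusted p = 2.8e-05), *Inha* fell by 0.79 (standard error 0.126, adjusted p = 3.0e-05) and *Amh* fell by 0.75 (standard error 0.197, adjusted p = 0.0064), each lower in 4 of 4 libraries. *Acvr1* rose by 0.76 (standard error 0.262, adjusted p = 0.032). *Acvr2a* differed by -0.10 (standard error 0.263, adjusted p = 0.83) and *Bmp4*, near 0 in both, by -0.85 (standard error 1.49, adjusted p = 0.72). In all, 2 of the 8 members tested were higher and 4 lower, with a median of -0.77 beside -0.06 for all genes, but the call of *Acvr1* was lost in 7 of its 12 alternatives and that of *Amh* in 3 of its 14.

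The Sertoli markers were lower too. The summed level of the 10 markers in SV Sertoli-like cells was 68.5%, 66.8%, 75.4% and 63.5% of the tubule level. *Amhr2* was at 54.96% to 59.8%, *Inha* at 52.7% to 64.5%, *Inhbb* at 46.8% to 64.1% and *Amh* at 51.8% to 67.2%. In the tubule class itself, cells with under 2000 detected genes had lower levels than the deeper cells, for example 628, 986, 582 and 1376 against 1056, 2021, 1211 and 2306 CPM of *Inha*. The median share of mitochondrial UMIs was 7.45% and 5.40% in the SV sub-clusters and 6.97% to 12.9% in those of the tubule class. In cells below 10%, *Inha* averaged 1269 CPM in tubule and 835 CPM in SV Sertoli-like cells, against 1479 and 904 CPM in all. The part of this share was not tested. Sums of 8 immediate-early genes (*Fos*, *Fosb*, *Jun*, *Junb*, *Egr1*, *Atf3*, *Ier2* and *Ier3*) were 4513 to 5559 CPM in SV Sertoli-like and 807 to 1504 CPM in tubule Sertoli-like cells, and their part in the result was not tested. This list was chosen after seeing the genes that led the SV sub-clusters, *Atf3* and *Fos* among them. The sums were 9465 to 11563 CPM in stromal-like and 128 to 228 CPM in spermatocyte-like cells. In the *Wfdc18*-led sub-cluster these sums were 1911, 568, 1036 and 1321 CPM, above the tubule class of the same library in 3 of 4. There *Fst*, on 2 to 5 UMIs per library, was above the tubule class in every library, and *Inha* (358 to 1052 CPM), *Inhbb* (12.5 to 57.7 CPM) and *Amhr2* (299 to 439 CPM) were below it. *Amh*, on 1 to 4 UMIs, had 14.9, 34.4, 24.97 and 12.8 CPM and was above the tubule class in control 2. *Acvr1*, on 0 to 2 UMIs, had 14.9, 8.60, 0 and 12.8 CPM and was below the tubule class in 3 of 4 libraries. Markers of Leydig cells summed to 120 to 148 CPM in SV Sertoli-like and 11.04 to 30.02 CPM in tubule Sertoli-like cells, with 4 of 5 detected in the former and *Cyp17a1* at 0, and their part was not tested.

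The call of *Amh* was lost without control 1 (-0.75, adjusted p = 0.069), with DESeq2 (adjusted p = 0.055) and in cells below 10% mitochondrial UMIs (adjusted p = 0.098). For *Acvr1* the lowest value was 0.52, without control 1 (adjusted p = 0.30, edgeR as above). Without 2508 tubule cells in sub-clusters whose leading genes held more markers of other classes than of Sertoli cells, a check added after seeing the data, *Fst* was at 2.79, *Inhbb* at -1.21, *Inha* at -1.02, *Amhr2* at -1.05 and *Amh* at -0.97, all past the threshold. The 2508 cells left out were shallower, from sub-clusters with medians of 2072, 2673 and 3107.5 UMIs against 8420 and 8544.5 UMIs for those kept. In the largest (1158 cells) the only leading marker of another class was *Uchl1*. The cells left out, about as many as remained (2502), were lower than SV Sertoli-like cells in *Fst*, *Inha*, *Inhbb* and *Amh*. In *Fst* they had 2.81, 2.39, 3.65 and 4.04 CPM, below the SV Sertoli-like value in 4 of 4 libraries. They had 531, 912, 529 and 1317 CPM of *Inha*, 54.0, 68.8, 58.3 and 76.7 CPM of *Inhbb* and 27.0, 10.5, 10.5 and 13.9 CPM of *Amh*, each below the SV Sertoli-like value in 4 of 4 libraries. *Amhr2*, at 376, 568, 512 and 542 CPM, was above it in 4 of 4. The lower levels in SV than in tubule Sertoli-like cells thus hold for the tubule class as a whole and for the remaining 2502 cells, and for *Inha*, *Inhbb* and *Amh* not for the 2508 cells.

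**Figure D3:**
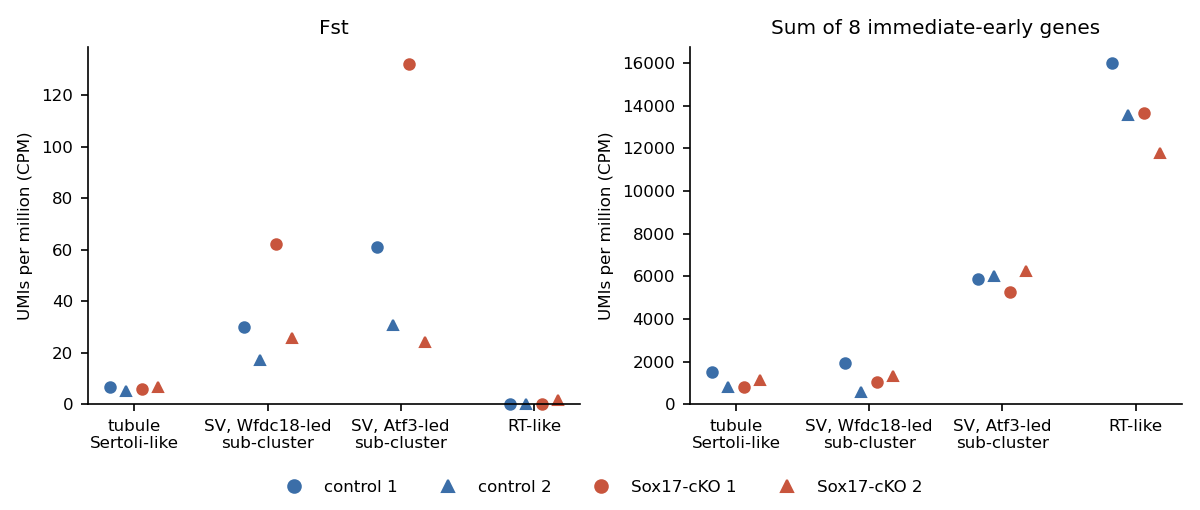
Level of *Fst* (left) and summed level of 8 immediate-early genes (right), in CPM on linear axes from 0, in tubule Sertoli-like cells, both SV Sertoli-like sub-clusters and RT-like cells, with 1 point per library (blue control, red *Sox17*-cKO, circles replicate 1, triangles replicate 2). *Fst* was above the tubule class in both sub-clusters, at 17.2 to 132 CPM. The immediate-early genes were chosen after seeing the genes that led the SV sub-clusters. They summed to 568 to 1911 CPM in the *Wfdc18*-led and 5249 to 6228 CPM in the *Atf3*-led sub-cluster.

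Among the other genes of the pathway (43 genes in 5 groups), 18 were tested between these classes, of which 7 were higher in SV Sertoli-like cells and 0 lower, beside 13.0% and 14.3% of all genes. None of the 14 further ligand genes had enough UMIs to be tested, and of 4 receptor genes tested none passed. Of 4 further inhibitor genes 3 rose, among them *Fstl3*, a relative of follistatin (0.62, standard error 0.135, adjusted p = 0.0011 by edgeR and 0.061 by DESeq2) and the BMP-binding *Twsg1* (0.60, standard error 0.137). Of 6 Smad genes, which carry the signal to the nucleus, 3 rose, most of all the BMP and AMH mediator *Smad1* with 31.7, 16.9, 34.9 and 34.3 CPM in SV Sertoli-like against 6.11, 3.44, 3.63 and 5.13 CPM in tubule Sertoli-like cells (2.60, standard error 0.290, adjusted p = 1.8e-07). *Smad4*, the common partner, rose by 0.60 (standard error 0.124, adjusted p = 0.00060). Of the 4 Id genes, known targets of BMP signals, *Id2* rose (0.58, standard error 0.140, adjusted p = 0.0029) and the other 3 did not pass.

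Between RT-like and tubule Sertoli-like cells all 8 members tested were past the threshold, in a comparison where 60.0% of the 8700 genes were, 28.7% higher and 31.3% lower. *Bmp4* was higher by 6.43 on the log2 scale (standard error 0.422, adjusted p = 2.4e-12), *Acvr2a* by 1.41 (standard error 0.232, adjusted p = 1.2e-05) and *Acvr1* by 0.87 (standard error 0.293, adjusted p = 0.013). The *Bmp4* value rested on 20 UMIs in tubule Sertoli-like cells and lay between 5.93 and 7.26 over its 13 alternatives. *Inha* fell by 5.16 (standard error 0.191, adjusted p = 4.7e-17), *Inhbb* fell by 2.78 (standard error 0.171, adjusted p = 6.9e-13) and *Amhr2* fell by 1.13 (standard error 0.147, adjusted p = 3.9e-07). *Amh* was past the threshold (adjusted p = 5.3e-09), and with a floor of 3 counts over the RT-like class it was at least 21.8-fold lower there. For *Fst* (adjusted p = 0.016), with 1 UMI in RT-like cells, the ratio of the summed levels was 10.8 (95% counting interval 1.92 to 430). Its call was lost without control 2 (adjusted p = 0.068). Each of the 8 members tested had its direction in 4 of 4 libraries, with 3 higher and 5 lower, and with a median of -1.96 beside -0.05 for all genes. Markers of stromal cells, which have *Bmp4*, summed to 208 to 444 CPM in RT-like and 42.6 to 239 CPM in tubule Sertoli-like cells, with all 7 detected in both, and endothelial markers to 281 to 511 and 4.14 to 9.75 CPM, with all 6 detected in both. The sums of the 8 immediate-early genes were 11780 to 15987 CPM in RT-like cells. Their part in the result was not tested.

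The SV Sertoli-like and RT-like cells, which are neighbours in the tissue, were set against each other in the same fit, in which 47.2% of genes passed (24.2% higher and 23.0% lower in SV Sertoli-like cells). *Inha* was higher in SV Sertoli-like cells by 4.37 (standard error 0.195, adjusted p = 9.7e-15) and *Inhbb* by 1.84 (standard error 0.204, adjusted p = 6.2e-08). *Amh* was at least 13.3-fold higher at the same floor, and the ratio for *Fst* was 91.3 (interval 16.1 to 3633). *Bmp4* was higher in RT-like cells with a ratio of 193 (interval 34.0 to 7675), and *Acvr2a* was lower in SV Sertoli-like cells (-1.51, standard error 0.298, adjusted p = 0.00017). *Amhr2* (0.26, standard error 0.155, adjusted p = 0.18) and *Acvr1* (-0.11, standard error 0.332, adjusted p = 0.81) were not past the threshold by edgeR, which does not show that they were equal. With no filter on low counts *Amhr2* passed it (0.35, adjusted p = 0.019).

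**Figure D4:**
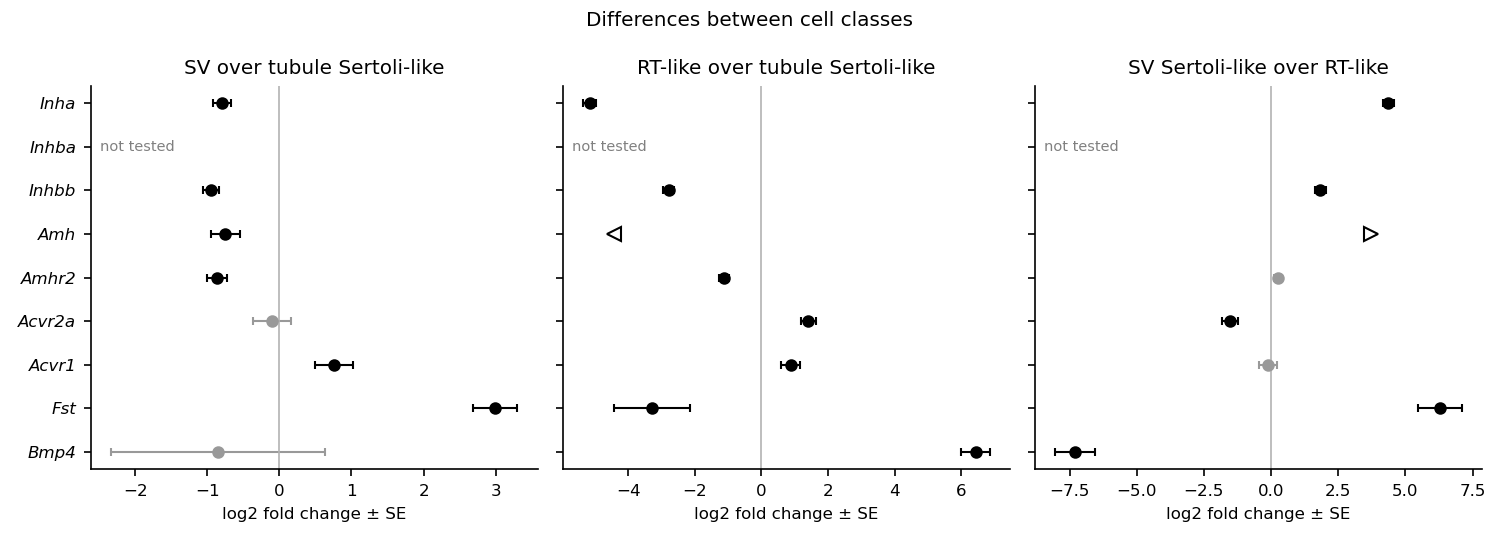
Differences of the 9 genes between classes as log2 fold changes with standard errors (linear axis, scaled per panel, n = 4 libraries with the library as a block). Black points were past the adjusted threshold, grey points were not, and open triangles mark *Amh* as a lower bound against RT-like cells with 0 UMIs. Values of *Fst* in RT-like and of *Bmp4* in SV Sertoli-like cells rest on 1 UMI. *Fst* was higher and *Inha*, *Inhbb*, *Amh* and *Amhr2* were lower in SV than in tubule Sertoli-like cells, and *Bmp4* was the member most raised in RT-like cells.

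The other pathway genes were tested in the same fit. Of the 18 further genes tested between RT-like and tubule Sertoli-like cells, 13 rose and 2 fell in the RT-like class, where 28.7% of all genes were higher and 31.3% lower. All 4 Id genes were higher, among them *Id3* at 726, 495, 463 and 492 against 83.7, 66.0, 50.8 and 57.9 CPM (log2 fold change 2.96, standard error 0.152, adjusted p = 2.6e-14) and *Id2* (1.98, standard error 0.139). Of 4 receptor genes 3 were higher and 1 lower, and the BMP type I receptor gene *Bmpr1b*, at 144, 159, 116 and 114 CPM in RT-like cells, was at or below 0.724 CPM in every tubule Sertoli-like library (8.13, standard error 0.305, adjusted p = 1.5e-15). In SV Sertoli-like cells *Bmpr1b* had 0 UMIs, so its level in RT-like cells was at least 121-fold higher. The secreted BMP antagonist *Nbl1* (4.02, standard error 0.153) and the BMP-binding *Twsg1* (2.00, standard error 0.125) were higher, whereas *Fstl3* was lower (-3.15, standard error 0.276, adjusted p = 5.1e-10), as was *Fst*. The *Nbl1* level was 416 and 580 CPM in RT-like cells of the controls and 157 and 212 CPM in those of the *Sox17*-cKO libraries, a difference not past the threshold between genotypes. Between SV Sertoli-like and RT-like cells, 3 of 18 were higher in SV Sertoli-like cells, among them *Fstl3* (3.76, standard error 0.282) and *Smad4* (0.90, standard error 0.175), beside 24.2% of all genes, and 11 were lower, beside 23.0%, among them *Nbl1* (-3.33), *Id3* (-3.15), *Id4* (-2.70) and *Id2* (-1.40).

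Finally, the genotypes were compared within each class, 2 libraries against 2, to ask whether loss of *Sox17* from the RT went with a change in these genes. No member was past the threshold in any of the 3 classes. On simulated data these tests recovered 13.4% to 21.1% of 2-fold changes, so most changes of that size would be missed. In tubule Sertoli-like cells 0 of 11955 genes were called (0%), with 93 at an unadjusted p below 0.05 and 0 by DESeq2. This class was mixed unevenly. Its sub-cluster led by *Ly6k*, *Hist1h2aa* and *Stk31* held 67 and 4 cells of the controls, and 308 and 8 of the *Sox17*-cKO libraries. With the sub-clusters led by other cell types left out, 0 of 11336 genes were called by edgeR. The SV Sertoli-like class had 0 of 7508 (0%), with 111 at an unadjusted p below 0.05 and 0 by DESeq2. In RT-like cells 6 of 6799 genes were called (0.0882%), with *Sox17* among them (-3.14, standard error 0.334, adjusted p = 0.018). DESeq2 called 21 there, and edgeR called 99 with no filter on low counts. The count also moved with 1 library left out, but such fits take their spread from the 2 libraries of the other genotype. *Inhba* was not tested in any class, *Bmp4* not in the Sertoli-like classes, and *Amh*, *Acvr1* and *Fst* not in RT-like cells, because of low counts.

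*Amhr2* in RT-like cells had the smallest unadjusted p among the members. Both controls, with 439 and 554 CPM, were above both *Sox17*-cKO libraries, with 223 and 355 CPM, and the log2 fold change was -0.80 (standard error 0.318, unadjusted p = 0.033, adjusted p = 0.77 by edgeR's quasi-likelihood test). The replicate number coincides with the version of the counting software, which was 6.0.2 for both libraries numbered 1 and 6.1.2 for both numbered 2. Within each of these pairs *Amhr2* was lower in the *Sox17*-cKO library, and with the number as a block in the edgeR fit it was past the threshold (-0.81, adjusted p = 0.0058), in a fit that called 275 genes in place of 6. The block adds a term for the same libraries, so less is left to estimate the spread of each gene. Over the 12 alternatives of *Amhr2* the value lay between -1.19 and -0.53. In the Sertoli-like classes *Amhr2* differed by -0.06 (standard error 0.331) in tubule and -0.03 (standard error 0.329) in SV cells. The difference between the RT-like and the tubule Sertoli-like genotype effects was -0.77 (standard error 0.261, unadjusted p = 0.0065, adjusted p = 0.31 by the same test, in which 0.483% of 8700 genes passed). It was therefore not shown that *Amhr2* responded differently in RT-like cells.

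For *Amh* the fitted genotype difference was -0.79 (standard error 0.419, unadjusted p = 0.093, adjusted p = 1.0) in tubule Sertoli-like cells and -0.91 (standard error 0.522, unadjusted p = 0.10, adjusted p = 1.0, edgeR's quasi-likelihood test for both) in SV Sertoli-like cells. Both differences rested on control 1, at 61.9 CPM in tubule cells against 22.3 to 29.5 CPM in the other libraries. Control 2 had the lowest level of the 4 libraries in both classes (22.3 and 14.8 CPM). Without control 1 the value in tubule cells was 0.06 and the SV class had too few *Amh* UMIs to be tested. *Acvr2a* in RT-like cells, at 60.2 CPM in *Sox17*-cKO 2 and 30.3 to 33.1 CPM in the others, differed by 0.60 (standard error 0.430), and *Bmp4* there by 0.20 (standard error 0.338). *Fst* in SV Sertoli-like cells differed by 0.53 (standard error 0.565), a value that depended on *Sox17*-cKO 1 and was -0.93 without that library. The other members differed by 0.26 or less on the log2 scale in every class where they were tested, apart from *Acvr2a* in SV Sertoli-like cells (-0.56, standard error 0.566). These small values were not stable, since with 1 library left out *Inha* ran from -0.57 to 0.63 in tubule and from -0.68 to 0.67 in SV Sertoli-like cells and *Acvr1* from -0.44 to 0.57 in tubule Sertoli-like cells. The medians over the members tested were -0.04 in tubule Sertoli-like, -0.11 in SV Sertoli-like and 0.20 in RT-like cells, beside -0.01, -0.01 and -0.00 for all genes. In the main fit no gene of the wider pathway was past the threshold between the genotypes in any class, of 21, 16 and 18 tested. Their medians were -0.05 in tubule Sertoli-like, 0.01 in SV Sertoli-like and -0.31 in RT-like cells, with -1.24 for the 3 inhibitor genes tested in the last. For no member tested was a difference in genotype effect between 2 of these classes past the threshold, where 0% (SV and tubule Sertoli-like), 0.483% (RT-like and tubule Sertoli-like) and 0.230% (SV Sertoli-like and RT-like) of 8700 genes were, by edgeR. For *Amhr2* the difference between SV Sertoli-like and RT-like cells was 0.75 (standard error 0.275, adjusted p = 0.53).

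**Figure D5:**
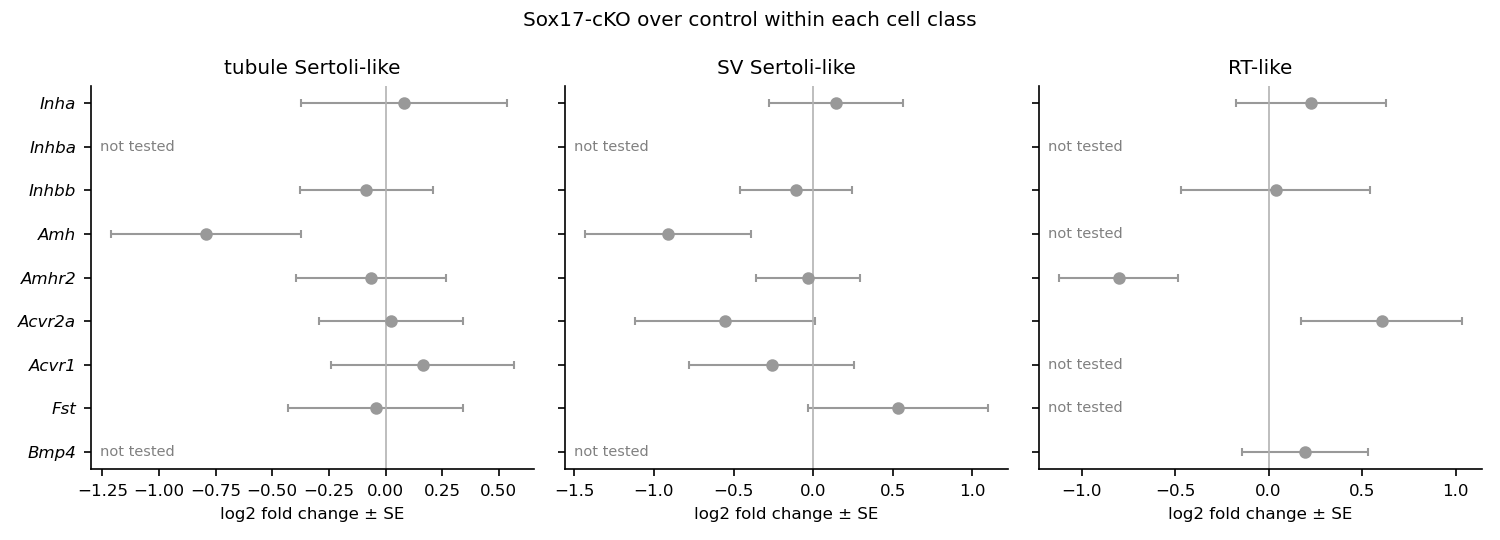
Log2 fold change of *Sox17*-cKO over control for each gene in tubule Sertoli-like, SV Sertoli-like and RT-like cells, with standard errors (linear axis, scaled per panel, n = 2 libraries per genotype). All points are grey because none was past the adjusted threshold, and genes with too few UMIs are marked as not tested. *Amh* in the Sertoli-like classes and *Amhr2* in RT-like cells lay furthest below 0.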

How the data were processed

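Per the labels and the file headers, the authors counted UMIs with Cell Ranger (6.0.2 for the libraries numbered 1, 6.1.2 for those numbered 2) against mm10 (GRCm38). The deposited values are whole UMI counts per gene and barcode, not normalized. Tables that pool the libraries were not used.

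Cells with 1000 to 4500 detected genes were kept, 5174 to 6135 per library with 33649565 to 42011650 UMIs. The 1% mitochondrial limit of the study was not applied, because it left 12 to 145 cells per library. Libraries were integrated and clustered in Seurat 5.3.0 (R 4.3.3; 2000 variable features without the members and pathway genes, 20 components, resolution 0.4), and clusters named from marker lists. Sertoli-like cells were clustered again to find SV cells, a step added after seeing the data. Scrublet (Scanpy 1.11.5) called 0% to 3.00% of barcodes where 7.51% to 10.7% were expected, so it did not work, and doublets were kept. Retained cells of any pair of libraries shared 7 to 9 barcodes.

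UMIs summed per class and library were tested with edgeR 4.0.16 (TMM, filterByExpr, quasi-likelihood F test, two-sided, Benjamini-Hochberg). Fold changes use TMM scaling and CPM all UMIs of the class. Intervals and floors cover counting error only. The steps were tested on simulated data. There the genotype tests recovered 19.4%, 13.4% and 21.1% of 2-fold changes in tubule Sertoli-like, SV Sertoli-like and RT-like cells. Of 4-fold changes they recovered 81.6%, 80.8% and 81.6%. The test of SV against tubule Sertoli-like cells recovered 86.5% of 2-fold changes. Levels needed 20 cells in every library. The members and lists were chosen with earlier results of these data known. All 9 members are named. Pathway genes are named up to 5 per direction and comparison by smallest adjusted p, among called genes changed the same way in every library. Genes come from GENCODE vM21 and promoters from RefSeq (7 of 9 members matched in the table used, all but *Amh* and *Fst*). The *Inha* and *Acvr1* windows lie within the GENCODE genes and are not shown. Alternatives were DESeq2 1.42.0, filters, libraries left out, other clusterings and the replicate block.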

Additional observations from a re-analysis of the deposited data

How the results depend on the processing

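Of the single-gene values, 724 kept their direction and their side of the threshold under the alternatives, 12 lost a call, 2 gained one and 33 changed sign, and none of those 33 had a call. The number of genes called between genotypes in RT-like cells (6) was 21 with DESeq2, 99 with no filter on low counts, 16 in cells below 10% mitochondrial UMIs and 11 to 106 with 1 library left out, the highest without *Sox17*-cKO 1; in SV Sertoli-like cells (0) it was 1 with no filter and 0 to 1 with 1 library left out. The *Inhbb* level of tubule Sertoli-like cells was 123 CPM in cells below 10% mitochondrial UMIs and 127 CPM as a mean over cells, and that of *Amhr2* was 656 CPM in cells below 10% mitochondrial UMIs. The cause was not tested for any of these.

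With the replicate block, 0 genes were called between genotypes in tubule Sertoli-like, 10 in SV Sertoli-like and 275 in RT-like cells. Deviations of same-numbered libraries correlated at 0.55, 0.38 and 0.37 in these classes. Clustered without integration, tubule Sertoli-like cells also split by number. Their sub-clusters held, for example, 542, 10, 826 and 16 cells of the 4 libraries, or 9, 633, 2 and 560. Libraries thus differed by number, and the main genotype test leaves that difference in its spread. With 2 pairs it cannot be shown that the libraries were made as pairs. The block changed no other call of a member than that of *Amhr2* in RT-like cells.

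With 1 library left out, genotype differences in tubule Sertoli-like cells ran from -0.57 to 0.63 for *Inha*, -0.40 to 0.16 for *Inhbb*, -1.30 to 0.060 for *Amh*, -0.34 to 0.31 for *Amhr2*, -0.24 to 0.23 for *Acvr2a*, -0.44 to 0.57 for *Acvr1* and -0.17 to 0.12 for *Fst*. In SV Sertoli-like cells they ran from -0.68 to 0.67 for *Inha*, -0.54 to 0.16 for *Inhbb*, -0.33 to 0.35 for *Amhr2* and -0.93 to 1.36 for *Fst*, and in RT-like cells from -0.12 to 0.54 for *Inha*. Between SV and tubule Sertoli-like cells *Acvr2a* ran from -0.29 to 0.11 and *Bmp4* from -3.90 to 0.18. In cells below 10% mitochondrial UMIs, the genotype difference became 0.26 for *Inhbb*, 0.025 for *Amhr2* and 0.73 for *Fst* in tubule and 0.11 for *Amhr2* in SV Sertoli-like cells, and *Acvr1* between SV Sertoli-like and RT-like cells became 0.13. Without integration, the genotype difference in SV Sertoli-like cells became 0.064 for *Inhbb* and 0.017 for *Amhr2*, and between SV and tubule Sertoli-like cells *Acvr2a* became 0.045 and *Bmp4* 0.26. With SV cells found at resolution 0.8, the genotype difference there became 0.89 for *Inhbb* and 0.022 for *Amhr2*, *Bmp4* against tubule Sertoli-like cells became 0.14 and *Amhr2* against RT-like cells became -0.0059. With the highest doublet scores removed, the genotype difference of *Inhbb* in RT-like cells became -0.020.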
